A study of Mus musculus with 4 samples.

Results

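Klra4 and Klra16 encode lectin-like receptors of the Ly49 family, which are best known from natural killer cells. On these Illumina bead arrays of mouse keratinocytes they were represented by every probe whose platform annotation names either gene: 3 probes for Klra4 and 2 for Klra16. That is 2 of 16593 annotated genes and 5 of 25697 probes. The genes were chosen because their signal was lower on day 7 than on day 4, so the values of that comparison describe them and were not tested. The cells were primary keratinocytes of newborn mice. All 4 samples shared the 129 background and a Pou5f1::GFP transgene, a fluorescent reporter, and had been transduced with reprogramming transcription factors that the labels do not name. The groups were 2.5 uM DAPT on day 7, no DAPT on day 7, 2.5 uM DAPT on day 4 and no DAPT on day 4, with 1 array each. DAPT blocks gamma-secretase, whose cut sets free the intracellular, active piece of Notch receptors. Groups follow the sample titles, since the treatment field reads DAPT for every sample. Nothing says whether the cultures were independent, whether litters were pooled, or which share of the cells had been transduced.

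Ly49 receptors sit on the cell surface as pairs of identical chains and recognise MHC class I molecules on other cells. Inhibitory members signal through a phosphatase-recruiting motif in their own tail. Activating members lack it and depend on the adaptor Tyrobp, also called DAP12. The products of Klra4 (Ly49d) and Klra16 (Ly49p) belong to the activating kind. The genes lie in tandem in the natural killer gene complex, and the number and identity of the copies differ between mouse strains. RefSeq lists both genes under chromosome 6 and gives a name used in strain 129, ly49r, among the synonyms of Klra4. Its assembly GRCm38.p6 is based on strain C57BL/6J, and no upstream sequence was matched there for Klra16. Protein-coding neighbours of Klra4 there are Klra6 on one side and Klra8 on the other. Sequences of the probes were not used here, so a probe named for one Klra gene may bind the transcript of another, and the names below are those of the annotation.

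Of the 5 probes, 3 were bright on day 4 and dimmer on day 7, and 2 stayed near background. Levels are background-corrected, quantile-normalized intensities on the log2 scale, set against the deposited intensities where stated. A probe counted as detected on an array if its detection p-value in the deposited table was under 0.01. The first Klra4 probe, ILMN_3031402, had deposited intensities of 139 with DAPT and 128 without DAPT on day 7, and of 1008 with DAPT and 842 without DAPT on day 4. The second Klra4 probe, ILMN_2982019, had intensities of 144 with DAPT and 69.3 without DAPT on day 7, and of 922 with DAPT and 700 without DAPT on day 4. The brighter Klra16 probe, ILMN_3005175, had intensities of 106 with DAPT and 89.5 without DAPT on day 7, and of 722 with DAPT and 628 without DAPT on day 4. Each of these 3 probes was detected on all 4 arrays, and both day 7 arrays lay below both day 4 arrays for each of them.

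The remaining probes of the same genes did not share this signal. The third Klra4 probe, ILMN_3104704, is annotated to the same transcript record as ILMN_3031402 and was detected on 0 of 4 arrays. Its deposited intensities were 4.01 with DAPT and 0.614 without DAPT on day 7, and 14.3 with DAPT and -3.14 without DAPT on day 4. The dimmer Klra16 probe, ILMN_2724548, shares its transcript record with ILMN_3005175. It was detected on 1 array, that of DAPT on day 4, at an intensity of 20.2, against 6.96 without DAPT on day 4, and had 11.9 with DAPT and -1.85 without DAPT on day 7. Probes for the same annotated transcript thus disagreed on whether Klra4 was above background and on how bright Klra16 was.

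**Figure D1:**
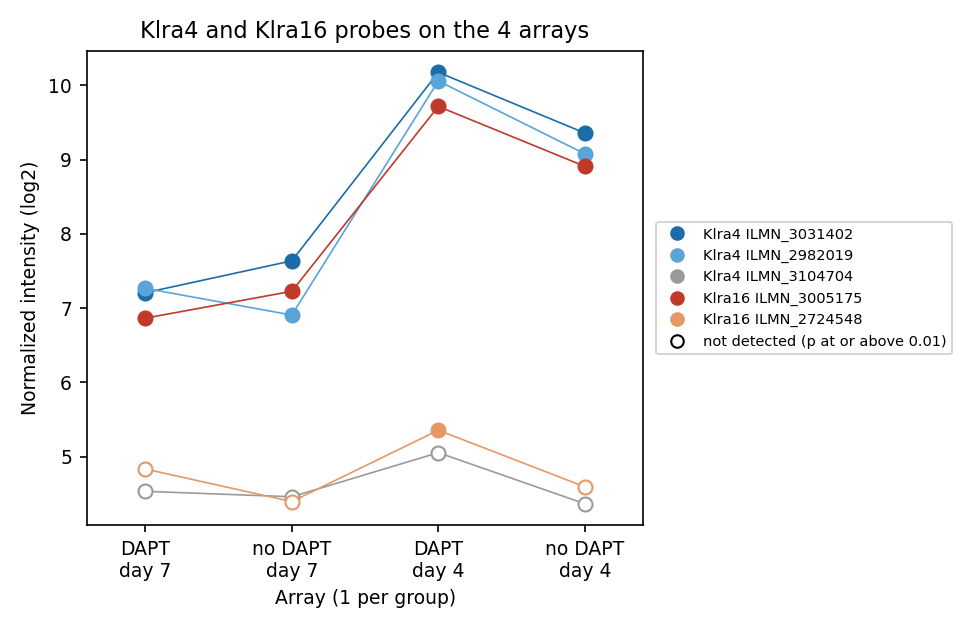
Normalized log2 intensity (vertical axis) of the 3 Klra4 and 2 Klra16 probes on the 4 arrays (horizontal axis, 1 array per group), with filled points where a probe was detected and open points where it was not. The 3 bright probes lie between 6.86 and 7.64 on the day 7 arrays and between 8.91 and 10.18 on the day 4 arrays, while the other 2 stay between 4.36 and 5.35.

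Since Klra4 carried the bright signal while most other Klra genes did not, the 250 bases upstream of its annotated start are shown beside those of Klra17. Klra17 is the gene with a probe on the array, none detected, whose upstream window was most like that of Klra4. Both are RefSeq sequences of build GRCm38.p6, given 5′ to 3′ on the minus strand, and strain 129 may differ from them. Capitals in the Klra4 line mark its match to TGGGAA, the core bound by RBPJ, the DNA-binding partner of Notch. Capitals in the Klra17 line mark bases that do not align to an identical base of Klra4.
Klra4, chr6:130067272-130067521: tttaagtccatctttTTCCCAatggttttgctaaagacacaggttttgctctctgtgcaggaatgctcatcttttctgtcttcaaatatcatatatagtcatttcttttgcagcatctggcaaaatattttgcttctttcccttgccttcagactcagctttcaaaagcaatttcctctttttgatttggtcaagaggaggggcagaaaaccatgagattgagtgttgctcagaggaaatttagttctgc
Klra17, chr6:129876673-129876922: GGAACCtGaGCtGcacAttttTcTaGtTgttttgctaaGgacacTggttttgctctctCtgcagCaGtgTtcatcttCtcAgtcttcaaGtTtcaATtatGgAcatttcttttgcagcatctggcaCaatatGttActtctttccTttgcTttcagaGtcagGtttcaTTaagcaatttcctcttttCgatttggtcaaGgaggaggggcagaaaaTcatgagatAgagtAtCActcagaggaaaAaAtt

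In a pairwise alignment 203 of the 250 bases of Klra4 were identical in Klra17, and 212 in Klra8, which has no probe on the array. Windows of other genes with undetected probes matched at 194 bases for Klra7, 175 for Klra5 and 165 for Klra6. The window of Klra2, which had 1 of 2 probes detected, matched at 182. Searched on both strands, TGGGAA occurred 1 time in the Klra4 window at position -235 relative to the start, and in 2 of 11 Klra windows. It was present in 21.5% of the upstream windows of 27025 genes. The motif TGANTCA, bound by AP-1 factors, was found 0 times in the Klra4 window and in 6.87% of all windows. TATAAA was found 0 times in the Klra4 window, in 6 of the 11 Klra windows and in 13.0% of all windows. These motif matches describe the letters of the windows alone. No promoter entry was matched for Klra16.

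Between the days, the bright probes were among the lowest of all probes in the cells grown with DAPT. Of 14144 probes detected on at least 1 of the 2 arrays, ILMN_3031402 ranked 1, ILMN_3005175 ranked 2 and ILMN_2982019 ranked 3 when ordered from the most negative difference. In the authors' values they ranked 9, 11 and 14, and without further background correction 3, 4 and 5. The first Klra4 probe had 7.21 with DAPT on day 7, against 10.18 with DAPT on day 4, a log2 difference of -2.97. The second Klra4 probe had 7.26 on day 7, against 10.06 on day 4, a difference of -2.79. Klra16 had 6.86 on day 7, against 9.72 on day 4, a difference of -2.85. These differences are 7.83-fold, 6.93-fold and 7.22-fold lower levels on day 7. All 3 passed 2-fold. Of the probes compared 3.29% were at least 2-fold higher and 1.97% lower (465 and 279 probes, or 649 and 172 after median scaling), and nothing is read from that share because the genes were chosen on this contrast.

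Without DAPT the same probes were also lower on day 7, by less than with DAPT in each of the 5 ways of processing. In the deposited intensities they were 6.60-fold, 10.1-fold and 7.02-fold lower without DAPT (first Klra4 probe, second, Klra16), beside 7.24-fold, 6.39-fold and 6.82-fold lower with DAPT. The mean intensity of the day 7 array was 0.69 times that of day 4 without DAPT and 1.14 times with DAPT. For the second Klra4 probe and Klra16 the order therefore depends on normalizing the arrays. The normalized differences were smaller without DAPT for all 3, although for the second Klra4 probe median scaling left -2.58 without DAPT beside -2.67 with DAPT. The first Klra4 probe had 7.64 without DAPT on day 7, against 9.36 without DAPT on day 4, a difference of -1.72. The second had 6.91 on day 7, against 9.08 on day 4, a difference of -2.17. Klra16 had 7.23 on day 7, against 8.91 on day 4, a difference of -1.68. These are 3.30-fold, 4.50-fold and 3.21-fold lower levels. The probes ranked 346, 121 and 371 from the lowest of 14504 (776, 309 and 711 in the authors' values), where 6.32% of probes were at least 2-fold higher and 9.65% lower. Those shares are 917 and 1399 probes, and after median scaling of the arrays they became 393 and 2301. The dimmer Klra16 probe was at least 1.44-fold lower on day 7 with DAPT, where the day 7 array did not detect it. With an offset of 50 that bound was 1.20-fold.

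**Figure D2:**
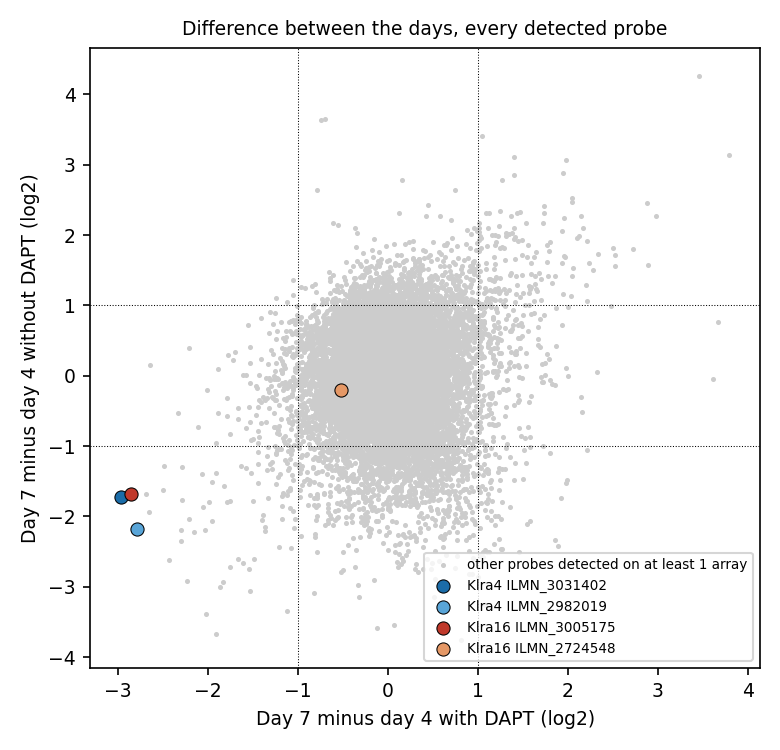
Difference between day 7 and day 4 on the log2 scale for every probe detected on at least 1 array, with DAPT on the horizontal and without DAPT on the vertical axis, and dotted lines at 2-fold. The 3 bright Klra probes lie at the far left, between -2.97 and -2.79 with DAPT and between -2.17 and -1.68 without DAPT, while the dimmer Klra16 probe lies at -0.52 and -0.20.

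Each difference rests on single arrays and has no replicate error. To gauge technical error, an SD was taken from how far the probes of a gene differed, over genes with exactly 2 probes, both detected. It was 0.26 for the days with DAPT (999 genes) and 0.56 without DAPT (958 genes). It holds no spread between cultures, and the day differences were not set against it, since they chose the genes. In a bulk culture, fewer cells carrying a transcript and less transcript per cell cannot be told apart.

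On day 4 the 3 bright probes were higher with DAPT. The first Klra4 probe had 10.18 with DAPT, against 9.36 without DAPT, a difference of 0.82 or 1.76-fold. The second had 10.06 with DAPT, against 9.08 without DAPT, a difference of 0.98 or 1.97-fold. Klra16 had 9.72 with DAPT, against 8.91 without DAPT, a difference of 0.81 or 1.75-fold. All 3 normalized differences were above 0, and probes that bind a common transcript would agree as well. The technical SD between probes was 0.47 (1009 genes). The day 4 levels also enter the day differences for which the genes were chosen. The differences on day 4 are therefore a description and are not weighed against that SD. The deposited intensities were higher with DAPT by smaller ratios, of 1.20, 1.32 and 1.15. The mean intensity of that array was 0.77 times that of the array without DAPT. The size of these 3 differences therefore depends on normalizing the arrays. None of the 3 reached 2-fold, a size that 3.18% of 14558 probes exceeded in the higher and 5.82% in the lower direction. That is 463 probes higher and 847 lower, against 245 and 1467 with median scaling. The dimmer Klra16 probe was at least 1.66-fold higher with DAPT, where the array without DAPT did not detect it. With an offset of 50 that bound was 1.28-fold.

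On day 7 the bright probes did not move one way with DAPT. The first Klra4 probe had 7.21 with DAPT, against 7.64 without DAPT, a difference of -0.43. The second Klra4 probe had 7.26 with DAPT, against 6.91 without DAPT, a difference of 0.36. Klra16 had 6.86 with DAPT, against 7.23 without DAPT, a difference of -0.36. The SD between probes was 0.32 (957 genes), close to the size of each of these differences. None of the 3 passed 2-fold, against 2.67% of 13915 probes in the higher and 0.496% in the lower direction (372 and 69 probes, or 696 and 24 after median scaling). The deposited intensities of all 3 were higher with DAPT, by ratios of 1.09, 2.08 and 1.18, on an array whose mean intensity was 1.29 times that of the array without DAPT. The sign for the first Klra4 probe and for Klra16 therefore depends on normalizing the arrays, and median scaling gave -0.11 and -0.01 for them.

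**Figure D3:**
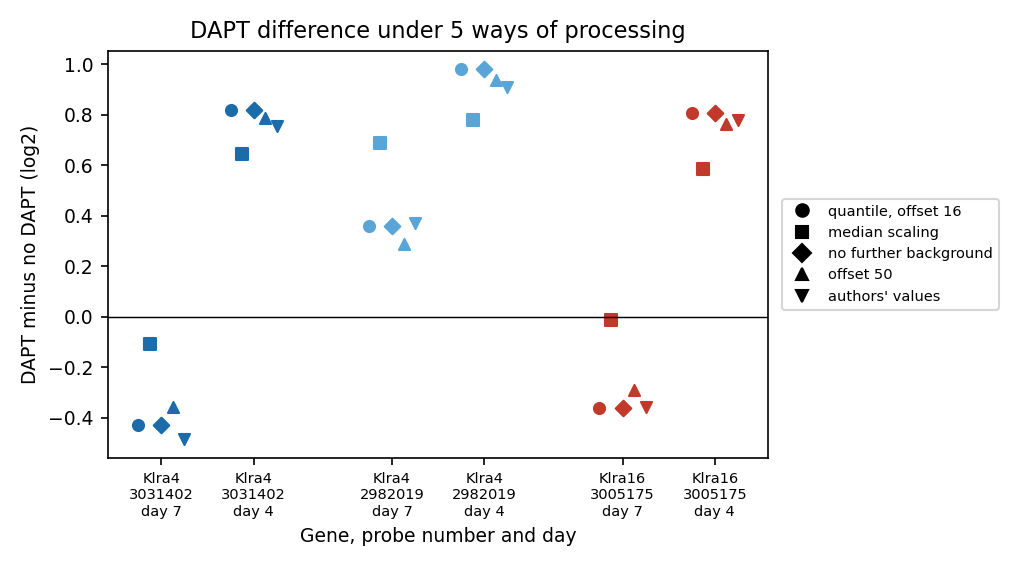
Difference between DAPT and no DAPT on the log2 scale (vertical axis) for the 3 probes detected on all arrays, on day 7 and day 4 (horizontal axis), with a marker for each of 5 ways of processing. All markers of day 4 lie between 0.59 and 0.98, and those of day 7 between -0.48 and 0.69, with 1 probe above 0 and 2 below.

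An additive model in limma, fitted to all 4 arrays with a term for the day and another for DAPT, gave the one test on a contrast that did not choose the genes. It found no effect of DAPT over both days past the threshold for any of the 4 probes of Klra4 and Klra16 that entered. The limma estimate was 0.19 for the first Klra4 probe (SE 0.40), 0.67 for the second (SE 0.38), 0.22 for the bright Klra16 probe (SE 0.40) and 0.60 for the dimmer one (SE 0.38). All 4 had a limma adjusted p of 0.9999, with unadjusted p-values of 0.633, 0.0947, 0.582 and 0.127. Across the array 1 of 15193 probes passed, or 0.00658%, and 201 had an unadjusted p under 0.05. The model leaves 1 residual degree of freedom, the difference between the DAPT effects of the 2 days, so it cannot separate noise from an effect that depends on the day.

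The first Klra4 probe and the bright Klra16 probe traced nearly the same profile. With each profile centred on its own mean, they differed by a root mean square of 0.05 log2 units over the 4 arrays. Of 15192 other probes detected on at least 1 array, each was the closest to the other. The second Klra4 probe stood farther off, at 0.29 from the first and 0.28 from Klra16. It departed from them mainly on day 7, where its DAPT difference lay 0.79 above that of the first and 0.72 above that of Klra16. Those gaps were 1.74 and 1.59 times the SD of a difference between probes, which is within the spread seen among probes of one gene. Likeness of this kind is a description over 4 arrays. The genes were chosen for the lower level on day 7, which shapes these profiles, so likeness is not independent of that choice. Probes that bind a common transcript would share a profile as well.

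The other Klra genes gave little signal. The array held 10 probes for 9 further members, Klra1, Klra2, Klra5, Klra6, Klra7, Klra10, Klra17, Klra22 and Klra23. Of these probes 9 were detected on no array, with levels from 4.19 to 4.95, and the lowest of their detection p-values was 0.0127. The exception was 1 of 2 probes for Klra2, which encodes the receptor Ly49b. It had 5.37 with DAPT and 4.60 without DAPT on day 7, and 6.03 with DAPT and 4.96 without DAPT on day 4, and was detected on all but the array without DAPT on day 7. The other Klra2 probe, undetected, had 4.42 with DAPT and 4.47 without DAPT on day 4. The detected Klra2 probe was higher with DAPT by 1.06 on day 4 and at least 1.70-fold on day 7. Its day 4 difference was 0.61 with an offset of 50 and 1.83 in the authors' values. The day 7 bound was 1.29-fold with an offset of 50 and 1.38-fold in the authors' values. Its day 7 level with DAPT was lower than its day 4 level with DAPT by a difference of -0.66. Klra6, the neighbour of Klra4 on the array, was not detected.

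**Figure D4:**
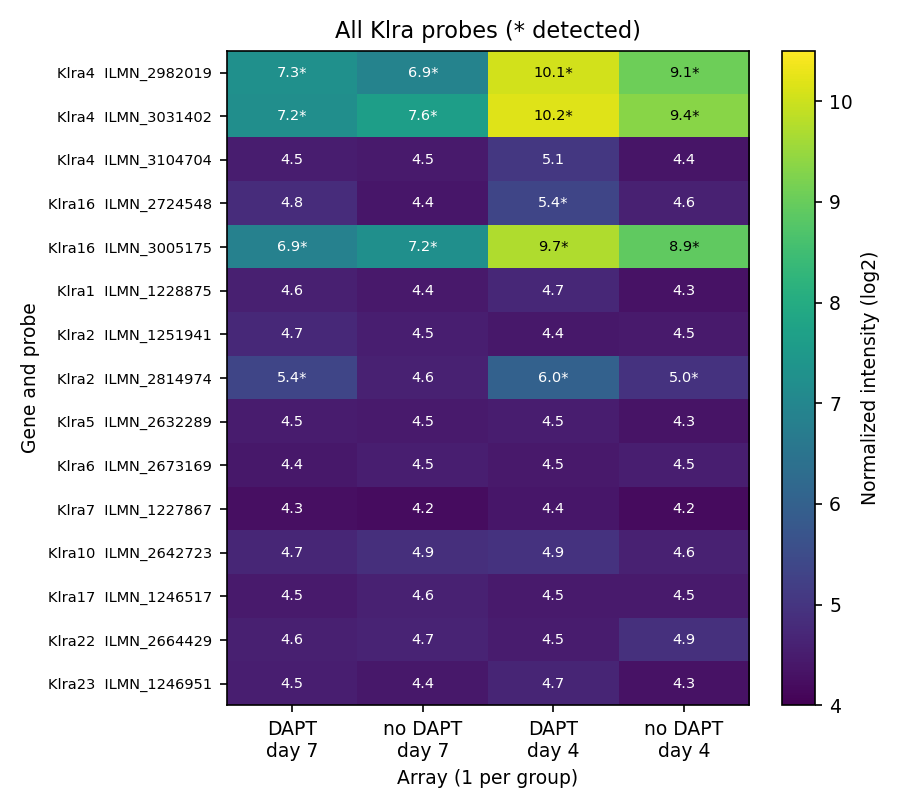
Normalized log2 intensity of all 15 Klra probes (rows) on the 4 arrays (columns, 1 array per group), by colour and number, with an asterisk where the probe was detected. Only 3 rows, 2 of Klra4 and 1 of Klra16, exceed 6.03 on any array, and Klra2 has 1 detected row between 4.60 and 6.03.

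Among 10356 genes outside the Klra family whose brightest probe was detected on at least 1 array, Tslp had the profile most like each of the 3 bright probes. Tslp encodes thymic stromal lymphopoietin, a cytokine released by epithelial cells. Its level was 7.54 with DAPT and 7.81 without DAPT on day 7, and 10.04 with DAPT and 9.43 without DAPT on day 4. Tslp thus differed between the days by -2.50 with DAPT and -1.62 without DAPT, the contrast for which the Klra genes were chosen. The root mean square difference from Tslp was 0.13 for Klra16, 0.17 for the first Klra4 probe and 0.33 for the second. The second of the 2 Tslp probes was not detected on any array. For the second Klra4 probe Tslp ranked 4 without further background correction and 6 in the authors' values. For the first Klra4 probe and for Klra16 it ranked 1 in each of the 5 ways of processing.

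The next genes were shared by the first Klra4 probe and Klra16. Plekhs1 followed at 0.18 and 0.17, Il13ra2, a decoy receptor for interleukin-13, at 0.29 and 0.26, and then Sdr16c5 and Sult1d1, a sulfotransferase, at 0.29 to 0.33. Plekhs1 had 4.90 with DAPT and 5.50 without DAPT on day 7, and 7.59 with DAPT and 7.19 without DAPT on day 4. Il13ra2 had 7.57 with DAPT and 8.02 without DAPT on day 7, and 9.87 with DAPT and 9.32 without DAPT on day 4. After Tslp, the second Klra4 probe was most like Col17a1, a hemidesmosome collagen of basal keratinocytes, at 0.36, then D17H6S56E-5 at 0.39, Sult1d1 at 0.40 and Lce1m, a cornified envelope gene, at 0.41. For the near-background probes the rule gave Plk4, Ppa1, Dnmt1, Otop2 and 9130008F23Rik for the third Klra4 probe, and Fnbp4, Mcm9, Krt222, Mcm4 and Stil for the dimmer Klra16 probe. Those 2 Klra probes were below detection on 4 and on 3 of the 4 arrays, so their profiles are mainly background.

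**Figure D5:**
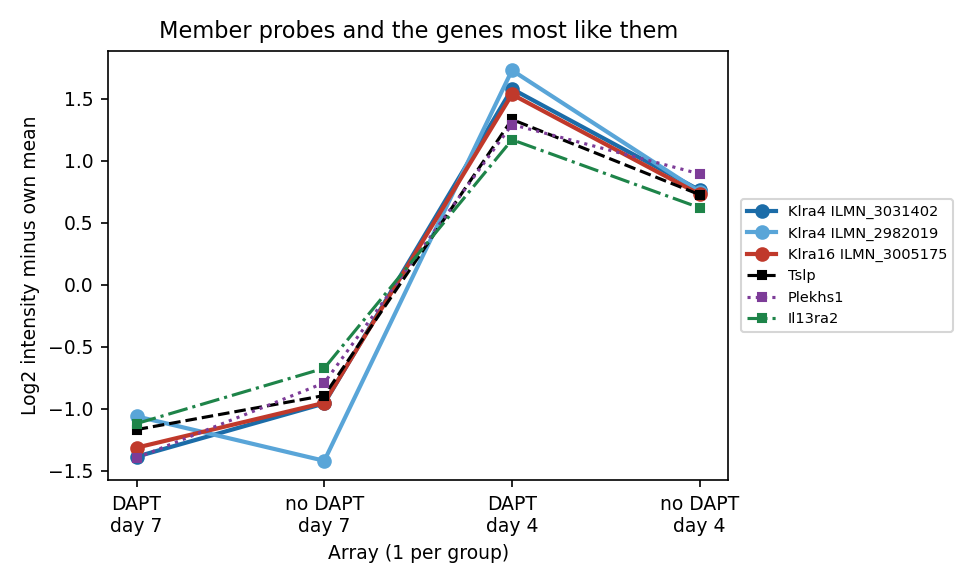
Log2 intensity minus each profile's own mean (vertical axis) on the 4 arrays (horizontal axis, 1 array per group) for the 3 bright Klra probes and for Tslp, Plekhs1 and Il13ra2. All 6 lines are low on both day 7 arrays and highest on the array of DAPT on day 4, and the second Klra4 probe departs from the rest without DAPT on day 7.

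Genes that act with Ly49 receptors in natural killer cells were described from lists. The adaptors Tyrobp and Hcst were detected on 0 of 4 arrays. With DAPT on day 4 their detection p-values were 0.0356 and 0.0140, so both would count there at a cut of 0.05. Of 22 adaptor and proximal signalling genes on the array, 11 were detected on at least 1 array. Between the days with DAPT, 2 of the 10 genes compared were lower by 2-fold or more and 0 higher. Their median was -0.02. Over all 9860 genes 3.07% were higher and 2.05% lower, and the median was -0.03. The lower members were Lat2, a linker of immune receptors, at -1.04 and Vav3, a signalling protein downstream of immune receptors, at -1.03. Under median scaling, and with the mean over all probes of a gene, 0 of the 10 passed. Without DAPT 0 of the 11 compared passed 2-fold, beside 7.49% of 9879 genes in the higher and 6.58% in the lower direction. With DAPT against no DAPT, 0 of 10 passed on either day. Those backgrounds were 3.81% higher and 3.6% lower of 9913 genes on day 4, and 1.71% higher and 0.495% lower of 9705 genes on day 7.

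MHC class I molecules are the ligands of Ly49 receptors. Of 22 genes for class I chains and for antigen loading, 18 were compared in each contrast, and probes for class I chains may not separate close copies. Between the days with DAPT all 18 were above 0, with a median of 0.69, against -0.03 for all genes. At least 2-fold higher were 3 and lower 0, beside 3.07% and 2.05% of all genes. Median scaling gave 5 higher, and the mean over all probes of a gene gave 2. The 3 higher were Tap2, a peptide transporter subunit, at 1.47, Psmb10, an immunoproteasome subunit, at 1.11 and H2-T23 at 1.02. Without DAPT the median was 0.01, with 2 at least 2-fold higher and 3 lower, beside the 7.49% and 6.58% of all genes given above. Median scaling turned the median to -0.30, with 0 higher and 5 lower. The mean over all probes of a gene gave 0 higher and 2 lower. The 2 higher were H2-K1 at 1.17 and Irf1, a regulator of class I genes, at 1.05. The 3 lower were the chaperones Calr at -1.73 and Pdia3 at -1.39, and H2-T23 at -1.08. H2-D1, a classical class I chain, had 9.36 with DAPT and 8.94 without DAPT on day 7, and 8.92 with DAPT and 9.05 without DAPT on day 4. B2m, the shared light chain, lay between 13.70 and 14.04 on the 4 arrays. With DAPT against no DAPT the class I list had a median of 0.41 on day 7, with 0 past 2-fold, beside 1.71% higher and 0.495% lower of all genes. Median scaling gave 0.68, with 4 higher. On day 4 the median was -0.24 (-0.47 under median scaling), with 0 at least 2-fold higher and 4 lower, beside 3.81% and 3.6% of all genes, the lowest being Calr at -1.72, Pdia3 at -1.46 and H2-T23 at -1.22.

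Markers of the cells that normally carry Ly49 receptors were mostly below detection. Of 17 natural killer cell markers, 11 were detected on no array, among them Ncr1, Klrk1, Klrd1, Gzma, Gzmb and Eomes. Of the 6 detected, Fcgr3 lay between 5.74 and 6.54 on all 4 arrays, and Il2rb and Itga2 were detected only without DAPT on day 4. With DAPT against no DAPT, 2 of 6 compared were at least 2-fold higher on day 4 and 1 of 3 on day 7, with 0 lower. All genes had 3.81% higher and 3.6% lower on day 4, and 1.71% and 0.495% on day 7. Klrb1c, known as NK1.1, was detected on 1 array, at 5.73 with DAPT on day 4, against 4.72 without DAPT on day 4. Prf1, which encodes perforin, was bright with 1 probe, at 11.07 with DAPT and 11.48 without DAPT on day 7, and 11.41 with DAPT and 10.21 without DAPT on day 4, while its other probe was not detected. Summed over the list, the level was 2601 with DAPT and 3295 without DAPT on day 7, and 3182 with DAPT and 1631 without DAPT on day 4, most of it from Prf1. Between the days with DAPT the list's median difference was -0.29, over 4 genes of which 3 were below 0. Of these 1 was at least 2-fold higher and 1 lower, beside 3.07% and 2.05% of all genes, whose median was -0.03. The higher was Ccl5 at 1.23 and the lower Klrb1c at -1.36, each undetected on 1 of the 2 arrays. Without DAPT the list's median was -0.23, over 5 genes of which 3 were below 0. There 1 was at least 2-fold higher, Prf1 at 1.27, and 0 lower, beside 7.49% and 6.58% of all genes. The part of these cells in the Klra signal was not tested. Ptprc, the pan-leukocyte antigen CD45, was not detected, and 4 of 9 leukocyte markers were detected on all 4 arrays. Those 4 summed to 327 with DAPT and 354 without DAPT on day 7, and to 300.4 with DAPT and 208 without DAPT on day 4. Of 11 T cell markers 8 were detected on no array, while Cd3e lay between 5.45 and 6.18 and Thy1, which fibroblasts carry too, between 11.70 and 12.43. Of 9 Langerhans cell and dendritic cell markers 6 were detected on no array, among them Cd207, the Langerhans cell lectin. The 3 compared were all higher on day 7, with medians of 0.44 with DAPT and 0.41 without DAPT. Of 12 macrophage and monocyte markers 8 were detected on no array. The 4 compared had medians of 0.55 with DAPT and 0.92 without DAPT between the days, with 3 above 0 and 1 below in each. The largest difference was that of Lyz1, at 1.34 with DAPT and 2.02 without DAPT. Of 24 other lectin-like genes of the natural killer complex, 17 were detected on no array, and Clec2e differed between the days by -1.29 with DAPT and -0.30 without DAPT on its brighter probe. Its other probe, also detected on all 4 arrays, differed by -0.42 with DAPT and 0.70 without DAPT.

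The labelled cell type had its markers, and summed marker levels differed between the days together with the Klra signal. Of 13 keratinocyte markers on the array 12 were detected on all 4 arrays. Krt14, a basal keratin, had 13.71 with DAPT and 13.45 without DAPT on day 7, and 14.54 with DAPT and 14.28 without DAPT on day 4. Krt5, its partner, differed by -2.23 with DAPT and -2.92 without DAPT between the days, and Trp63 by -1.11 and -0.99. The keratinocyte list summed to 20056 with DAPT and 17296 without DAPT on day 7, and to 35179 with DAPT and 32874 without DAPT on day 4. All 8 fibroblast markers were detected on all 4 arrays and summed to 26630 with DAPT and 25601 without DAPT on day 7, and to 15295 with DAPT and 15918 without DAPT on day 4. Between the days the 12 keratinocyte markers had a median of -0.70 with DAPT and -0.91 without DAPT. The 8 fibroblast markers had medians of 0.99 and 0.77. Without DAPT 2 of the 12 were above 0 and 2 of the 8 below. At least 2-fold lower were 5 of the 12 in each, beside 2.05% and 6.58% of all genes. At least 2-fold higher were 4 of the 8 with DAPT and 2 without, beside 3.07% and 7.49%. The part of these shifts in the lower Klra4 and Klra16 signal was not tested. The arrays detected between 12281 and 14145 probes, and their mean intensity lay between 323 and 472.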

How the data were processed

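Per the file headers, the deposited table holds a non-normalized intensity and a detection p-value per probe for each of 4 arrays. Values below 0 show that background had been subtracted before deposit. The submitters' processing notes list BeadStudio without a version. The authors also deposited normalized intensities on a linear scale, made by a method not given in the sources used here. From the non-normalized values, neqc of limma 3.58.1 (R 4.3.3) inferred negative controls from the detection p, corrected background, added an offset of 16, quantile-normalized and took log2. Probe names came from the platform annotation, where 23978 of 25697 probes had 1 symbol, 0 had several and 1719 are unnamed here. Identifiers of 23962 were found in the RefSeq table, which updated 0 symbols. A gene in a list was represented by its brightest probe on average, and entered a comparison if detected at p under 0.01 on at least 1 of its 2 arrays. Where the dimmer array did not detect a probe, the fold is a bound, computed with that array's lowest detected signal or the probe's own value, whichever was higher.

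With 1 array per group, differences have no p-value. The additive limma fit used Benjamini-Hochberg adjustment over all 15193 probes and a threshold of 0.05, and was tested on simulated data. The genes, the lists and the tests were chosen with earlier results of these data known. Named genes are the Klra members, the 5 genes most like each probe, list members past 2-fold (up to 3 each way) and a fixed set of markers. Other undetected markers, and Fcgr3, Il2rb and Itga2, were named after their values were seen. Alternatives were median scaling, no further background correction, an offset of 50, the authors' values (floor 16), other detection filters and a model without day.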

Additional observations from a re-analysis of the deposited data

Results flagged for a closer look

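In the normalized values the DAPT difference pointed opposite ways on the 2 days for 2 of the 3 bright probes. For the first Klra4 probe (ILMN_3031402) it was -0.43 on day 7 and 0.82 on day 4, so that the day 7 difference lay at -1.25 relative to day 4 on the log2 scale. For the bright Klra16 probe (ILMN_3005175) it was -0.36 on day 7 and 0.81 on day 4, a gap of -1.17. The difference between the days was not tested, since each rests on 4 single arrays. Each gap is also the day difference with DAPT minus that without DAPT. It thus holds the values for which the genes were chosen. The second Klra4 probe kept the same sign on both days, at 0.36 and 0.98. With median scaling the gaps of the first Klra4 probe and of Klra16 were -0.75 and -0.60. In the deposited intensities both of these probes were higher with DAPT on both days. The ratios were 1.20 on day 4 and 1.09 on day 7 for Klra4, and 1.15 and 1.18 for Klra16. The opposite signs therefore depend on normalizing the arrays.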

How the results depend on the processing

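The lower level on day 7 kept its direction and stayed past 2-fold for the 3 bright probes under median scaling, no further background correction, an offset of 50 and the authors' values, between -2.97 and -2.54 with DAPT and between -2.58 and -1.49 without DAPT. An offset of 50 moved Klra16 with DAPT to -2.54; a larger offset shrinks the differences of dimmer levels by construction. The higher level with DAPT on day 4 lay between 0.59 and 0.98. On day 7 median scaling moved the DAPT differences to -0.11 for the first Klra4 probe, 0.69 for the second and -0.012 for Klra16, while it shifted the median of all compared probes by 0.22 on day 7 and by -0.17 on day 4. Counts of probes past 2-fold moved with the scaling and the offset. Day 7 against day 4 without DAPT had 917 higher and 1399 lower, 393 and 2301 with median scaling, 468 and 815 with an offset of 50, and 1500 and 1927 in the authors' values. With DAPT it had 465 and 279, then 649 and 172, 228 and 112, and 842 and 710. DAPT against no DAPT on day 4 had 463 and 847, then 245 and 1467, 197 and 426, and 945 and 1323. On day 7 it had 372 and 69, then 696 and 24, 128 and 18, and 773 and 426, and without further background correction 522 and 108. The adjusted limma test called none of these probes under any of its alternatives. The count of probes called was 1 with detection on all 4 arrays and 0 in the other alternatives. Of 224 recomputed list medians 23 moved by more than the SD between probes. For the near-background probes 6 recomputed differences moved. The likeness to Tslp was recomputed as a choice made after seeing the data. No paired analysis was possible because each group has 1 array, so no replicate number can serve as a block, beyond the additive fit that compares DAPT with no DAPT within each day. Leaving out an array leaves no residual degree of freedom. Intensities near background limit the dimmer Klra probes.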
